A study of Mus musculus with 6 samples.

Results

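The Wnt pathway genes examined here are 54 genes chosen by symbol: 12 Wnt ligands, 14 receptors and co-receptors, 7 genes of the R-spondin axis, 5 cytoplasmic transducers, 8 inhibitors, 4 nuclear factors, 2 targets and 2 genes of ligand secretion. All 54 symbols were found among the 41214 genes of the count tables. They were compared between mouse mammary tumour explant cells with a control hairpin (shCTL, genotype WT, 3 libraries) and the same kind of cells with a hairpin against CdGAP (shCdGAP, genotype CdGAP KD, 3 libraries). Both groups came from explants of tumours grown from NMuMG, an epithelial line of the mouse mammary gland, and both expressed ErbB2, a receptor tyrosine kinase. Arhgap31 encodes CdGAP, which inactivates Cdc42 and Rac1, GTPases that control the cytoskeleton, and the series title places it with the repressor Zeb2 at the E-cadherin gene. The labels name no culture, clone or hairpin sequence, so p-values refer only to variation among these libraries, and that may be technical.

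Wnt proteins are secreted lipid-modified ligands that bind Frizzled receptors together with the co-receptors Lrp5 and Lrp6. In the canonical branch, binding recruits Dishevelled proteins and Axin to the membrane, beta-catenin escapes degradation, and TCF/LEF factors switch on targets such as Axin2, itself a negative regulator. R-spondins bind LGR receptors and remove the ligases Znrf3 and Rnf43, which otherwise clear Frizzled from the cell surface. Other ligands, such as Wnt5a, act mainly through Ror receptors on cell movement and polarity. In the mammary gland, Wnt signals are known for branching, for stem cell maintenance and for tumours that follow ectopic Wnt expression in mice.

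Total counts ran from 19176540 to 26824249 fragments per library, so that 0 counts in a library leave room for 0.112 to 0.156 CPM (counts scaled to library size) by counting error alone. Arhgap31 was at 13.2, 14.4 and 15.1 CPM in shCTL and at 1.70, 9.15 and 8.20 CPM in shCdGAP replicates 1 to 3, lower in each shCdGAP library, though the edgeR test did not call it (log2 fold change −1.16 ± 0.55, SE, adjusted p = 0.19). The library labelled shCdGAP replicate 1 stood apart from its replicates on the second principal component of all tested genes (21.7% of the variance). It lay at 66.6, against −31.4 and −43.2 for shCdGAP replicates 2 and 3. To a lesser degree shCTL replicate 1 also stood apart, at 16.4 against −3.70 and −4.71. Members whose call changed without shCdGAP replicate 1 are therefore named. Luminal epithelial markers (9 genes, Cldn3 and Cldn7 at 0) summed to 5912 to 8420 CPM in shCTL and 7182 to 10990.4 CPM in shCdGAP. Krt8 was at 3609 ± 805 and 4470.2 ± 1405 CPM and Krt18 at 3040 ± 474 and 3430.3 ± 740.4 CPM (shCTL and shCdGAP, SD, n = 3), with groups that overlapped. Cdh1, which encodes E-cadherin, rose from 232 ± 51.4 to 767 ± 85.3 CPM (edgeR adjusted p = 0.00193), Epcam fell from 92 counts to 0, and Krt19 and Elf3 were higher without overlap but did not pass. Summed levels of the lists for other cell types were low, moved in part with the groups, and in some lists rested on 1 gene. Endothelial markers (7 genes, Emcn and Cldn5 at 0) summed to 2.17 to 2.33 CPM in shCTL and 0.136 to 0.759 CPM in shCdGAP, and adipocyte markers (5 genes, Plin1 at 0) to 4.36 to 4.85 and 0.68 to 1.51 CPM. Leukocyte markers (8 genes, Adgre1 at 0) summed to 18.7 to 23.6 and 6.62 to 18.1 CPM, myoepithelial markers (8 genes, Acta2 at 0) to 1.34 to 1.73 and 1.83 to 5.53 CPM, and fibroblast markers (8 genes, Lum, Dpt and Thy1 at 0) to 5.35 to 6.19 and 3.41 to 7.01 CPM. The leukocyte sum was mostly Cd68 (17.6 ± 3.6 and 6.44 ± 4.04 CPM, adjusted p = 0.0709), while Itgam of the same list rose (15 to 98 counts) and Csf1r was at 1.87 ± 0.738 and 3.86 ± 1.98 CPM. The myoepithelial sum was mostly Krt5 in shCTL, which fell (100 to 2 counts), and Cnn1 in shCdGAP, which rose (4 to 217 counts). The part of these genes in the results was not tested. In such bulk libraries, fewer cells with a transcript and less transcript per cell cannot be told apart.

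Of the 54 genes, 32 had enough counts to be tested, and 11 of these changed in shCdGAP. Wnt4, Wnt7b, Wnt10a, Ror1, Rspo3 and Tcf7l2 rose, while Wnt5a, Fzd4, Lgr6, Tcf7 and Axin2 fell. Thus ligands went both ways, the receptor Ror1 rose while a Frizzled fell, and within the TCF/LEF family 1 member rose and 1 fell. The 6 rises stand beside 10.4% of all 13483 tested genes called higher, the 5 falls beside 11.4% called lower, and the 11 of 32 (34.4%) beside 21.7% called in either direction. The test was edgeR's quasi-likelihood F test with Benjamini-Hochberg adjustment over all tested genes, called at an adjusted p under 0.05. Of the tested members, Wnt4, Wnt5a, Wnt9a and Rspo3 reached the filter level of 0.408 CPM in all libraries of 1 group only, so the share called among tested members is a description and no support. The 2 groups of libraries did not overlap for 18 of the 32 members, 9 higher and 9 lower, against 21.7% and 22.4% of all tested genes (44.1% in either direction). The median log2 fold change was 0.11 over the 32 members, also with the shCTL total of Rspo3 set to 3 counts, and 0.01 over all tested genes. Without shCdGAP replicate 1, 11 members rose and 9 fell, among them all 11 of the calls above (all genes: 19.9% and 21.9%, or 41.8% in either direction). With the replicate number as a block, 5 members rose and 5 fell, beside 9.47% and 10.9% of all genes (20.4% in either direction).

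**Figure D1:**
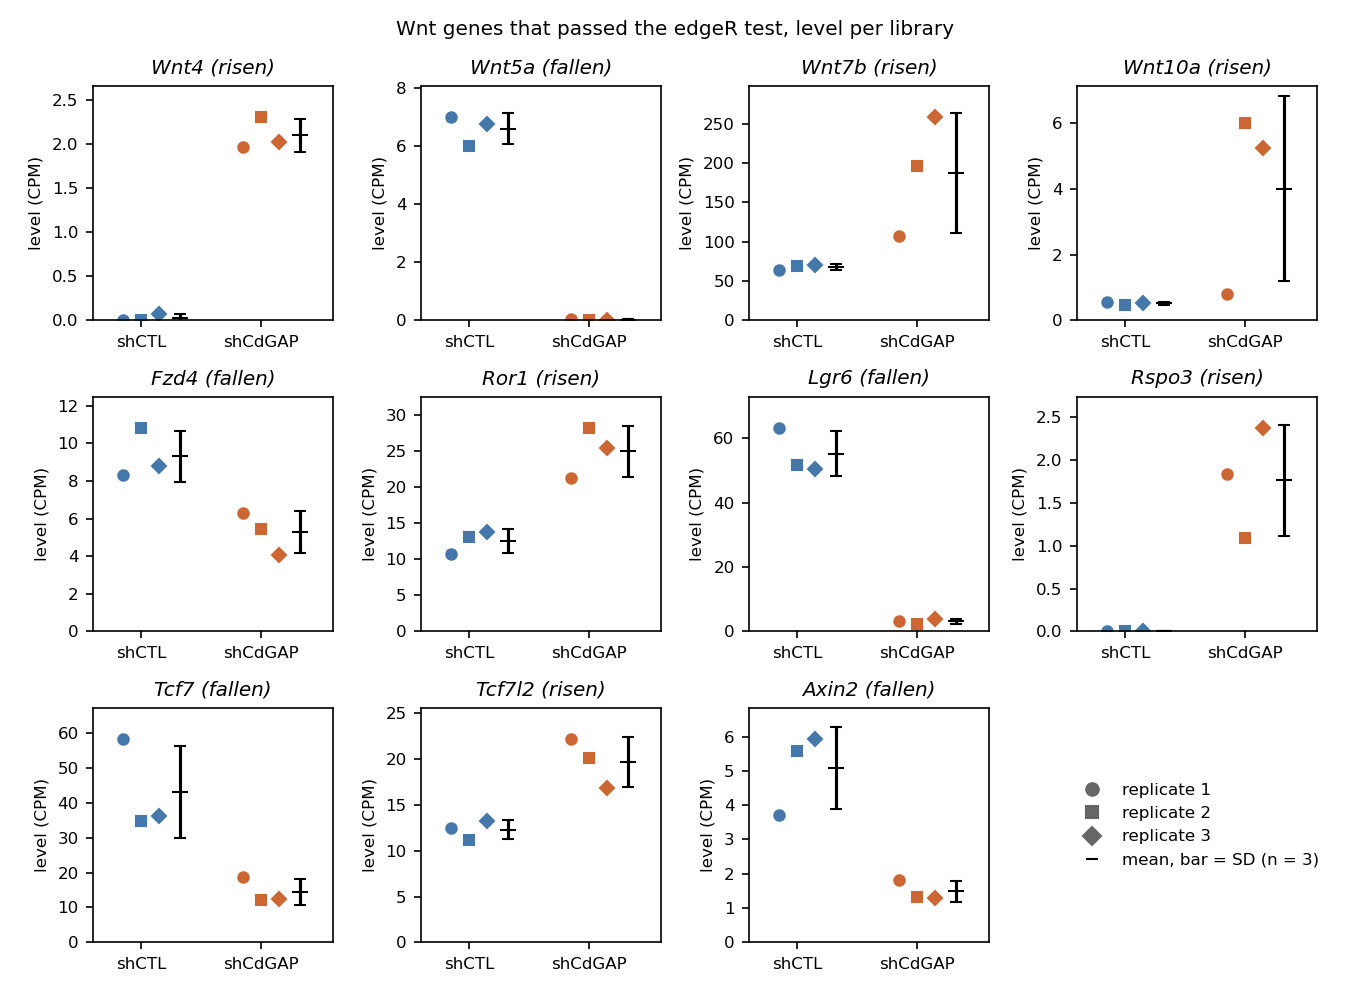
Levels in CPM (linear axes from 0) of the 11 Wnt genes that passed the edgeR test, 1 panel per gene. Points are the 3 shCTL (blue) and 3 shCdGAP (orange) libraries by replicate number, and black bars are mean and SD. The groups do not overlap in any panel, and for Wnt10a the replicate 1 point of shCdGAP (0.804 CPM) lies just above the shCTL points.

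The stretches of DNA just before the transcription start are shown for 5 members, because canonical targets are controlled by TCF/LEF factors and the study concerns the repressor Zeb2. RefSeq windows on GRCm38.p6, 250 bases before to 50 bases after a start, were matched by symbol for 36 of the 54 members (45 windows), among them 7 of the 11 genes that changed. Both strands were searched for the TCF/LEF core, spelled CTTTGAA, or with the last bases changed CTTTGAT, or in other forms CTTTGTA, or lastly CTTTGTT. They were also searched for the E-box letters that ZEB proteins bind, CAGGTG, or with another last base CAGGTA. The motifs do not overlap each other. The core was found in 16.9% of all 32851 windows and in 8 of the 45 member windows (17.8%), and the E-box in 29.5% of all windows and in 13 of 45 (28.9%). Both member shares lie near the share over all windows. The sequences below run 5′ to 3′ on the gene's strand and end 1 base before the start, or for Wnt4 before the gene start in the count tables. Capitals mark a match to either motif.
Axin2, chr11:108920099-108920348, plus strand: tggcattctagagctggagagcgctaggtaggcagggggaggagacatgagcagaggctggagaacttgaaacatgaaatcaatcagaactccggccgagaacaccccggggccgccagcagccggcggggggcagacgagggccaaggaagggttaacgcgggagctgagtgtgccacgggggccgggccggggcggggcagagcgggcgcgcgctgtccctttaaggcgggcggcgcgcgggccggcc
Lgr6, chr1:135105277-135105526, minus strand: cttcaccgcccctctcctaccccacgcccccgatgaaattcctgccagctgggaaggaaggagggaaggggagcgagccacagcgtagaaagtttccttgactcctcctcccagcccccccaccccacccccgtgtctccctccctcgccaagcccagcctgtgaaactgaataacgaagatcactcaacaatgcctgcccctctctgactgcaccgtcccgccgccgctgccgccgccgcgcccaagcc
Tcf7l2, chr19:55895071-55895320, plus strand: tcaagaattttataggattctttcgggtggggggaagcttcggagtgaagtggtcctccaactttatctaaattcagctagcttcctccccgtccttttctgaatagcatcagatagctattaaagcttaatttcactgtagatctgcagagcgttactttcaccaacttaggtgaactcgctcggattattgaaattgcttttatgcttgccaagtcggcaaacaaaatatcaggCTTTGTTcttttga
Sp5, chr2:70474673-70474922, plus strand: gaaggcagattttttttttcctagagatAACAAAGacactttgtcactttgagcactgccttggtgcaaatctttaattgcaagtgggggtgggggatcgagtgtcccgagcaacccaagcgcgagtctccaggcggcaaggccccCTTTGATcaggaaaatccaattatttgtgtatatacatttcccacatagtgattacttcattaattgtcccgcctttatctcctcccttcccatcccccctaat
Wnt4, chr4:137277385-137277488, plus strand: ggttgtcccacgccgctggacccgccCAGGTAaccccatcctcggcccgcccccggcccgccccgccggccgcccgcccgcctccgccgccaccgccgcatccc
Axin2 and Lgr6, which fell, had neither motif in this window, which says only that these letters are absent from it. The Tcf7l2 stretch precedes a second start inside the gene, with a core 14 bases before that start. This window was the only one with a core among called genes of the R-spondin axis, the nuclear factors and the targets. The window at the Tcf7l2 gene start of the count tables had 0 cores. The bases just after each start were also sought in known transcripts of the gene. They were found for that gene start, but not for the second Tcf7l2 start or the Wnt4 start. The other 4 stretches were chosen after the values of their genes were seen. Sp5, a direct Wnt target in other tissues, had cores 222 and 104 bases before its start and 0 counts in every library. Wnt4, which rose from near 0, had an E-box 224 bases and another 15 bases before the RefSeq start. The latter lies past the end of the stretch printed, inside the gene as the count tables place it. Among the other called genes with a window, only Tcf7, which fell, had an E-box (CAGGTG, 39 bases after a start). That Tcf7 start also lacked the transcript match. A match is a description of the letters and was not tested as a binding site.

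Among the ligands, Wnt7b made up most of the pool and rose, while Wnt5a fell to at or near 0 and Wnt4 and Wnt10a rose from low levels. Wnt7b, a canonical ligand expressed in mammary epithelium, was at 63.6, 68.5 and 70.9 CPM in shCTL replicates 1 to 3 and at 107, 196 and 259 CPM in shCdGAP replicates 1 to 3. Each shCdGAP library lay above every shCTL library, and replicate 1 rose least. The log2 fold change was 1.47 ± 0.305 (SE), a 2.77-fold rise (adjusted p = 0.0178). The gene no longer passed once a shCTL library or shCdGAP replicate 2 was removed (adjusted p up to 0.0868). Wnt7b lies on GRCm38 chromosome 15 from 85535439 to 85581821.

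Wnt5a, the main non-canonical ligand and an activator of Ror receptors, was at 7.01, 6.0 and 6.77 CPM in shCTL and at 0.0447, 0 and 0 CPM in shCdGAP. These are 481 counts against 1, a ratio of 456 (exact 95% binomial interval 81.5 to 18054, counting error only; adjusted p = 0.000313). Wnt4, a ligand that acts in mammary side branching downstream of progesterone, went the other way. It had 0, 0 and 0.0752 CPM in shCTL and 1.97, 2.31 and 2.02 CPM in shCdGAP. These are 2 counts against 146, a ratio of 77 (interval 20.9 to 642; adjusted p = 0.00162). For both genes the 3 shCdGAP libraries, replicate 1 included, lay close together. Wnt5a lies on chromosome 14 from 28504750 to 28527447 and Wnt4 on chromosome 4 from 137277489 to 137299726.

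Wnt10a, a canonical ligand, was at 0.567, 0.473 and 0.526 CPM in shCTL and at 0.804, 5.98 and 5.23 CPM in shCdGAP. The rise was thus large in shCdGAP replicates 2 and 3 and small in replicate 1, where Arhgap31 was lowest. The log2 fold change was 2.93 ± 0.734 (SE, adjusted p = 0.0335). It passed without shCdGAP replicate 1 but not when one of the other 5 libraries was removed (adjusted p up to 0.126), nor with the replicate number as a block (adjusted p = 0.059).

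The remaining ligands were low or absent. Wnt9a was at 1.18 ± 0.465 and 0.489 ± 0.204 CPM (shCTL and shCdGAP, SD, n = 3; log2 fold change −1.25 ± 0.431, SE, adjusted p = 0.0891), and it passed without shCdGAP replicate 1 (−1.58, adjusted p = 0.0237) and with the replicate block (−1.27, adjusted p = 0.0409). Wnt7a was at 0.651 ± 0.332 and 0.595 ± 0.147 CPM (adjusted p = 0.901). Wnt3, Wnt3a and Wnt5b had 5, 3 and 2 counts over the 6 libraries, and Wnt6, Wnt10b and Wnt11 had 0. Per length, Wnt7b supplied 90.2 ± 2.06% of the summed ligand level (CPM per kilobase) in shCTL and 94.5 ± 1.24% in shCdGAP (SD, n = 3). The summed ligand level was 16.4 to 17.7 CPM per kilobase in shCTL libraries and 25.6 to 61.5 in shCdGAP libraries. The share of Wnt5a went from 4.97 ± 0.467% to 0.00744 ± 0.0129%, while that of Wnt10a was 1.25 ± 0.138% and 3.27 ± 1.91%. Neither gene of ligand secretion passed the edgeR test, where 1 was higher at an unadjusted p under 0.05 and DESeq2 called 0. Over all tested genes, 17.4% were higher and 17.3% lower at an unadjusted p under 0.05, and DESeq2 called 14.1% risen and 14.5% fallen. Wls, the carrier that takes Wnt proteins to the surface, was at 94.3, 93.3 and 93.8 CPM in shCTL and at 219, 123 and 104 CPM in shCdGAP (log2 fold change 0.66 ± 0.275, SE, adjusted p = 0.143). All 3 shCdGAP libraries lay above shCTL, and without replicate 1, the highest, Wls passed with a smaller log2 fold change (0.29, adjusted p = 0.0382). Porcn, the enzyme that adds the lipid, was at 35.1, 19.9 and 13.7 CPM in shCdGAP around a shCTL level of 22.7 ± 0.213 CPM (log2 fold change 0.01, adjusted p = 0.984). Without shCdGAP replicate 1 the Porcn value was −0.42, which did not pass (adjusted p = 0.0648).

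**Figure D2:**
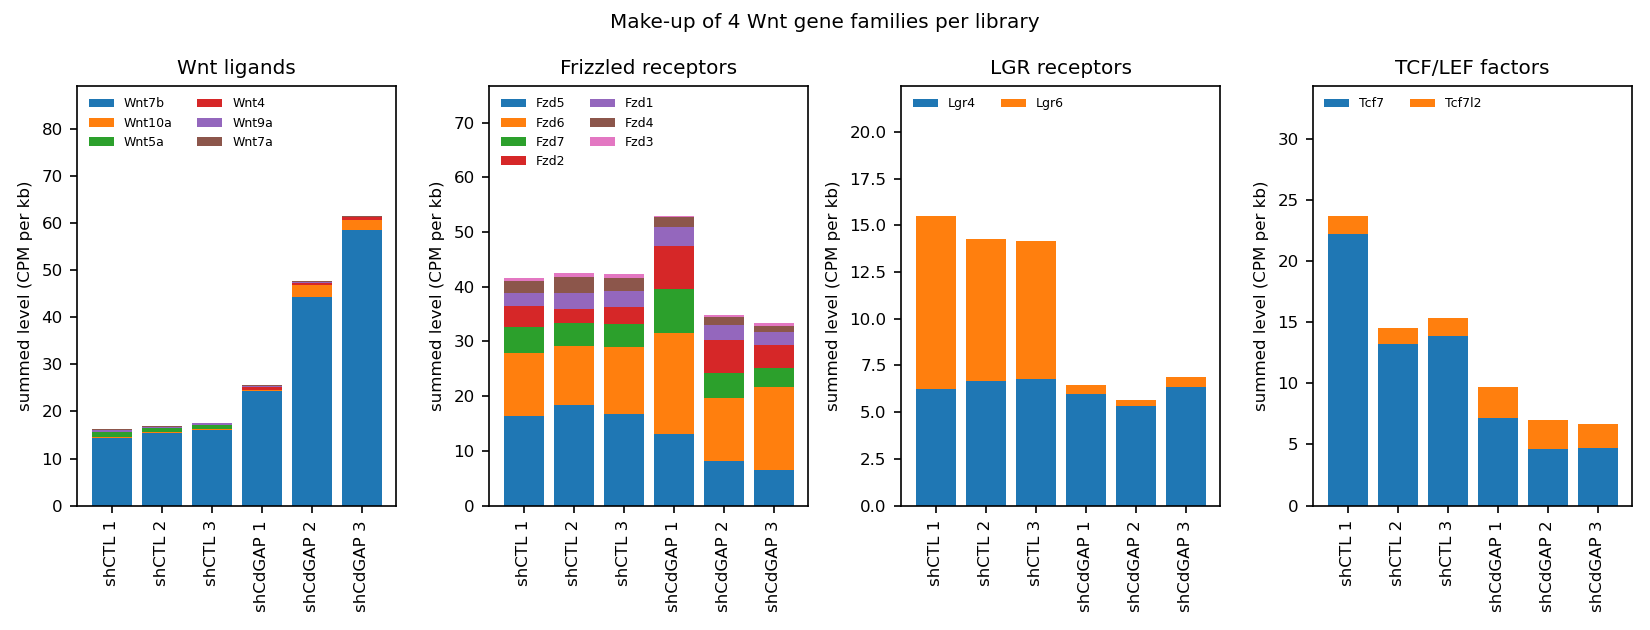
Summed levels per library, in CPM per kilobase of exon on linear axes from 0, of Wnt ligands, Frizzled receptors, LGR receptors and TCF/LEF factors, stacked by gene (genes above 0.3 CPM per kilobase in any library). Wnt7b fills most of the ligand bars in all 6 libraries, Lgr6 shrinks in shCdGAP beside a steady Lgr4, and Tcf7 shrinks beside a larger Tcf7l2.

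Of 14 receptors and co-receptors, 11 were tested, and Ror1 rose and Fzd4 fell (all genes: 10.4% risen and 11.4% fallen). Ror1, a receptor tyrosine kinase-like receptor for Wnt5a, was at 10.8, 13.1 and 13.9 CPM in shCTL and at 21.3, 28.3 and 25.5 CPM in shCdGAP. The groups were well apart, and the log2 fold change was 0.99 ± 0.171 (SE, adjusted p = 0.00921). Its relative Ror2 had 0 counts in all 6 libraries. Ror1 thus rose in the same libraries in which Wnt5a was at or near 0. Fzd4, a Frizzled that also binds norrin, was at 8.30, 10.8 and 8.80 CPM in shCTL and at 6.30, 5.44 and 4.08 CPM in shCdGAP (log2 fold change −0.82 ± 0.222, SE, adjusted p = 0.0424). The Fzd4 call held without shCdGAP replicate 1 but not when one of the other 5 libraries was removed (adjusted p up to 0.171), nor with the replicate block (adjusted p = 0.0609). Ror1 lies on chromosome 4 from 100095791 to 100444765 and Fzd4 on chromosome 7 from 89404366 to 89410110.

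Fzd5 and Fzd2 lay near the threshold on either side of 0. Fzd5, the most abundant Frizzled per length in shCTL, was at 114, 128 and 116 CPM in shCTL and at 90.7, 56.8 and 45.4 CPM in shCdGAP (log2 fold change −0.89 ± 0.253, SE, adjusted p = 0.0505). Fzd2 was at 13.97, 9.85 and 11.2 CPM in shCTL and at 28.9, 22.6 and 15.1 CPM in shCdGAP (0.93 ± 0.269, adjusted p = 0.0536). Neither pair of groups overlapped. Without shCdGAP replicate 1 both passed, Fzd5 at −1.21 (adjusted p = 0.000141) and Fzd2 at 0.71 (adjusted p = 0.0263), and Fzd2 also passed with the replicate block (adjusted p = 0.0442) and Fzd5 with RLE scaling (adjusted p = 0.043). Within the Frizzled family, Fzd5 supplied 40.6 ± 2.09% of the level per kilobase in shCTL and 22.6 ± 2.75% in shCdGAP (SD, n = 3), and Fzd2 7.53 ± 1.44% and 14.95 ± 2.69%. Fzd6 supplied 27.0 ± 1.84% and 37.6 ± 6.65%, so that it stood above Fzd5 in shCdGAP. The summed Frizzled level was 41.9 to 42.9 CPM per kilobase in shCTL and 33.6 to 53.0 in shCdGAP, ranges that overlap.

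The other tested receptors did not pass and their groups overlapped. Lrp5 and Lrp6, the co-receptors of the canonical branch, were at 187 ± 8.45 and 223 ± 43.1 CPM and at 113 ± 13.9 and 116 ± 18.5 CPM in shCTL and shCdGAP (adjusted p = 0.297 and 0.888). Ryk, an atypical Wnt receptor, was at 82.9 ± 3.53 and 95.5 ± 21.8 CPM (log2 fold change 0.20, adjusted p = 0.467) and passed without shCdGAP replicate 1 (0.38, adjusted p = 0.0156). Fzd6 was at 47.3 ± 2.93 and 62.1 ± 14.5 CPM, Fzd7 at 19.8 ± 1.3 and 24.2 ± 11.1 CPM and Fzd1 at 11.4 ± 1.05 and 12.0 ± 2.19 CPM (adjusted p = 0.189, 0.571 and 0.823). The log2 fold change of Fzd7 was 0.29, and −0.13 without shCdGAP replicate 1 (adjusted p = 0.503). Fzd3 was at 2.66 ± 0.517 and 1.48 ± 0.92 CPM (log2 fold change −0.84, adjusted p = 0.234) and passed without shCdGAP replicate 3 (−1.49, adjusted p = 0.0269). Fzd8 (23 counts against 3, ratio 7.27, interval 2.2 to 37.8) and Fzd9 (26 against 15) had too few counts to be tested.

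In the R-spondin axis, Lgr6 fell 17.6-fold, Rspo3 rose from 0 counts, and the other 3 tested genes did not pass. Lgr6, an R-spondin receptor that marks stem and progenitor cells of several epithelia, was at 63.4, 51.8 and 50.6 CPM in shCTL and at 3.22, 2.27 and 3.88 CPM in shCdGAP. The log2 fold change was −4.14 ± 0.239 (SE, adjusted p = 0.000233), and every shCdGAP library lay far below every shCTL library. Lgr4, the other receptor of the family present here, was at 38.6 ± 1.67 and 34.6 ± 3.04 CPM (adjusted p = 0.389), and Lgr5 had 9 and 27 counts in the 2 groups, too few to be tested. Lgr6 supplied 54.9 ± 4.1% of the summed LGR level per kilobase in shCTL and 7.07 ± 1.16% in shCdGAP (SD, n = 3). The summed LGR level was 14.2 to 15.5 CPM per kilobase in shCTL and 5.67 to 6.96 in shCdGAP.

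Rspo3, a secreted LGR ligand and a site of activating insertions of mouse mammary tumour virus, had 0 counts in all 3 shCTL libraries. It was at 1.83, 1.09 and 2.38 CPM in shCdGAP (125 counts), 43.9-fold higher when 3 counts are taken as the shCTL total (adjusted p = 0.00489). Rspo1 had 1 count over the 6 libraries. The ligases Znrf3 and Rnf43 did not pass, at 28.3 ± 1.44 and 34.2 ± 5.89 CPM for Znrf3 (log2 fold change 0.27, adjusted p = 0.273) and at 4.0 ± 0.633 and 5.71 ± 2.28 CPM for Rnf43 (adjusted p = 0.325). Without shCdGAP replicate 1, Znrf3 passed (0.42, adjusted p = 0.0109). Lgr6 lies on chromosome 1 from 134983301 to 135105276 and Rspo3 on chromosome 10 from 29453109 to 29535867.

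**Figure D3:**
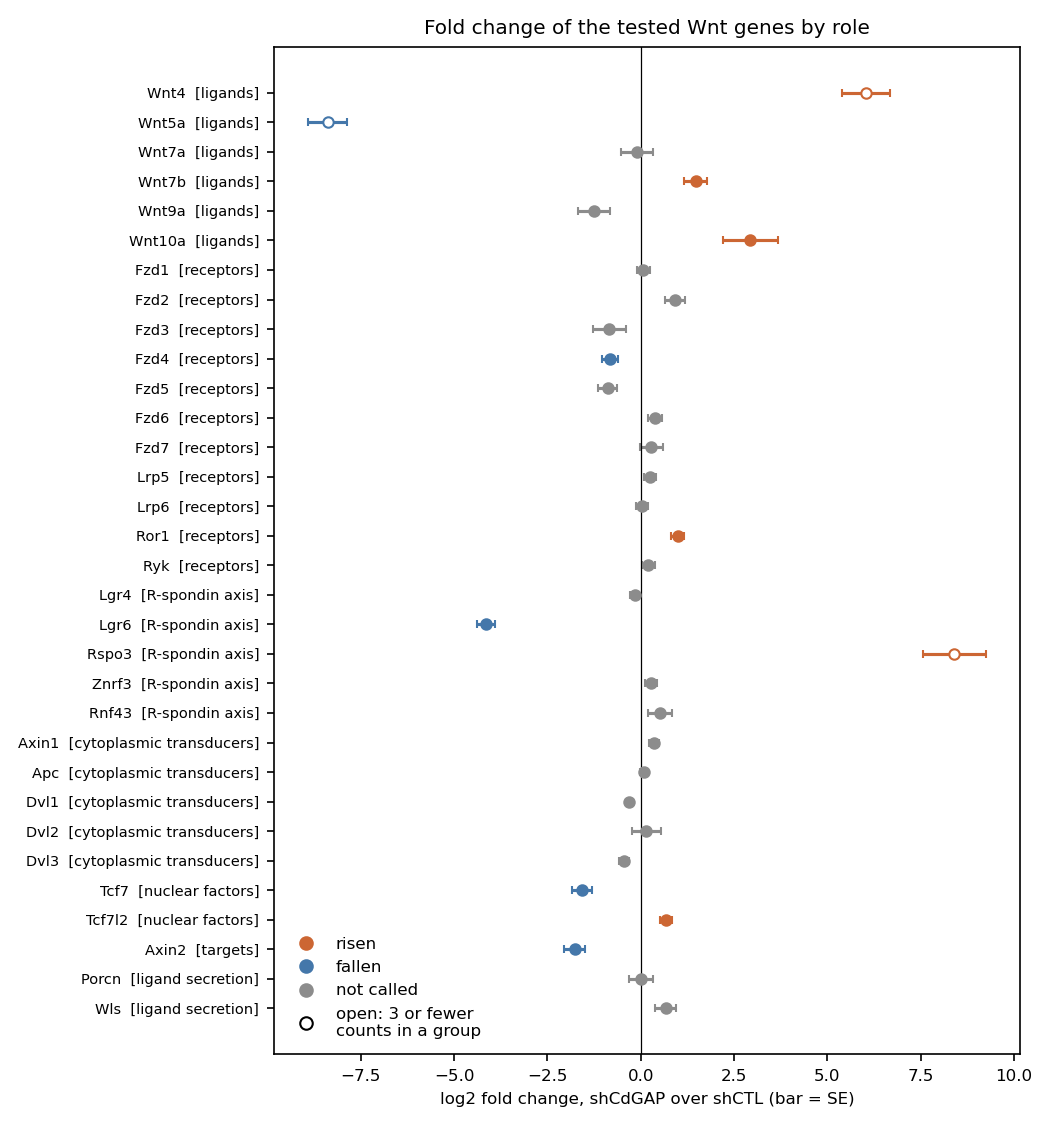
Fitted log2 fold changes (shCdGAP over shCTL, bars SE) of the 32 tested Wnt genes, in order of role, with risen genes in orange, fallen genes in blue and those that did not pass in grey. Open circles mark Wnt4, Wnt5a and Rspo3, with 3 or fewer counts in a group, whose fitted values depend on the prior count. Lgr6 at −4.14 is the largest change among the filled circles.

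None of the 5 cytoplasmic transducers passed the edgeR test with TMM scaling on all 6 libraries. There, 1 was higher and 2 were lower at an unadjusted p under 0.05 (all genes: 17.4% and 17.3%). DESeq2 called 0 higher and 2 lower (all genes: 14.1% and 14.5%). Dvl1 and Dvl3, Dishevelled adaptors that relay the receptor signal, were at 90.7 ± 1.61 and 73.5 ± 3.09 CPM and at 42.2 ± 1.13 and 30.7 ± 3.94 CPM in shCTL and shCdGAP (SD, n = 3). Their groups did not overlap, with log2 fold changes of −0.30 ± 0.0897 and −0.46 ± 0.131 (SE, adjusted p = 0.0571 and 0.0515). With RLE scaling Dvl3 passed (adjusted p = 0.0433). Axin1, the scaffold of the complex that degrades beta-catenin, was at 61.0 ± 2.75 and 77.6 ± 10.7 CPM, also without overlap (0.35 ± 0.129, adjusted p = 0.109). Without shCdGAP replicate 1 all 3 passed, at −0.32, −0.53 and 0.46 (adjusted p = 0.0126, 0.0059 and 0.00434). Dvl2 was at 54.3, 24.5 and 17.9 CPM in shCdGAP around a shCTL level of 29.0 ± 3.12 CPM (log2 fold change 0.15, adjusted p = 0.828). Without shCdGAP replicate 1 the Dvl2 value was −0.44, which did not pass (adjusted p = 0.0562). Apc, the tumour suppressor of the same degradation complex, was at 97.8 ± 7.25 and 103 ± 5.31 CPM (adjusted p = 0.651).

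The 8 inhibitors were at or near 0 in both groups, and none could be tested. Nkd1, Dkk1 and Sfrp1 had 0 counts in all libraries, and Nkd2, Dkk3 and Sfrp2 had 1 count each. Wif1, a secreted protein that binds Wnt ligands, went from 0 counts to 13, or 4.57-fold higher with the same floor of 3 counts as the shCTL total. Of the 13 counts most were in shCdGAP replicate 1 (0.491 CPM against 0.0453 and 0.0396). Notum, an enzyme that strips the lipid from Wnt proteins, had 0 counts in shCTL and 3, 0 and 3 in shCdGAP, so the groups overlapped. Its 6 counts over that floor give a ratio of 2.11, which takes the 6 counts as exact.

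Among the nuclear factors, Tcf7 fell and Tcf7l2 rose. Tcf7, a TCF factor that is also a Wnt target, was at 58.4, 34.7 and 36.3 CPM in shCTL and at 18.8, 12.2 and 12.4 CPM in shCdGAP. Replicate 1 was the highest library of each group, and the groups did not overlap (log2 fold change −1.58 ± 0.279, SE, adjusted p = 0.0101). Tcf7l2, the factor often named TCF4, was at 12.5, 11.2 and 13.3 CPM in shCTL and at 22.2, 20.1 and 16.8 CPM in shCdGAP (0.68 ± 0.16, adjusted p = 0.0278). It did not pass once a shCTL library or shCdGAP replicate 2 was removed (adjusted p up to 0.13), nor with the replicate block (adjusted p = 0.0572). Per kilobase, Tcf7 supplied 91.3 ± 1.8% of the TCF/LEF level in shCTL and 70.3 ± 3.48% in shCdGAP (SD, n = 3), and Tcf7l2 8.22 ± 2% and 29.3 ± 3.41%. Lef1, a TCF/LEF factor that is itself a known Wnt target, was not tested because of low counts. It had 31 counts in shCTL (0.825, 0.218 and 0.338 CPM) and 0 in the knockdown group, 9.80-fold lower with that floor. With no filter on low counts it was called (adjusted p = 0.0207). Tcf7l1 had 9 counts in each group. Tcf7 lies on chromosome 11 from 52252371 to 52283014 and Tcf7l2 on chromosome 19 from 55741810 to 55933654.

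Axin2, a feedback inhibitor used widely as a readout of canonical signalling, fell. It was at 3.71, 5.56 and 5.94 CPM in shCTL and at 1.83, 1.31 and 1.31 CPM in shCdGAP, without overlap (log2 fold change −1.77 ± 0.277, SE, adjusted p = 0.00637). Axin2 lies on chromosome 11 from 108920349 to 108950783. Sp5, the other target, had 0 counts in all 6 libraries.

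The libraries of the knockdown group differed among themselves more than those of the control group. For the 32 tested members the median coefficient of variation was 8.48% over the shCTL libraries and 24.0% over the shCdGAP libraries, and it was larger in shCdGAP for 26 of 32. Replicate 1 lay above both other shCdGAP libraries for 19 members, below both for 9 and between them for 4. Porcn, Dvl2, Fzd7 and Wls were highest in replicate 1, while Wnt7b, Wnt10a, Ror1 and Ryk were lowest in it. In the plot of members by library, replicate 1 is on the same side of the shCTL mean as replicates 2 and 3 for all 11 called genes. This must be so where the groups do not overlap, and it is no separate support for the calls.

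**Figure D4:**
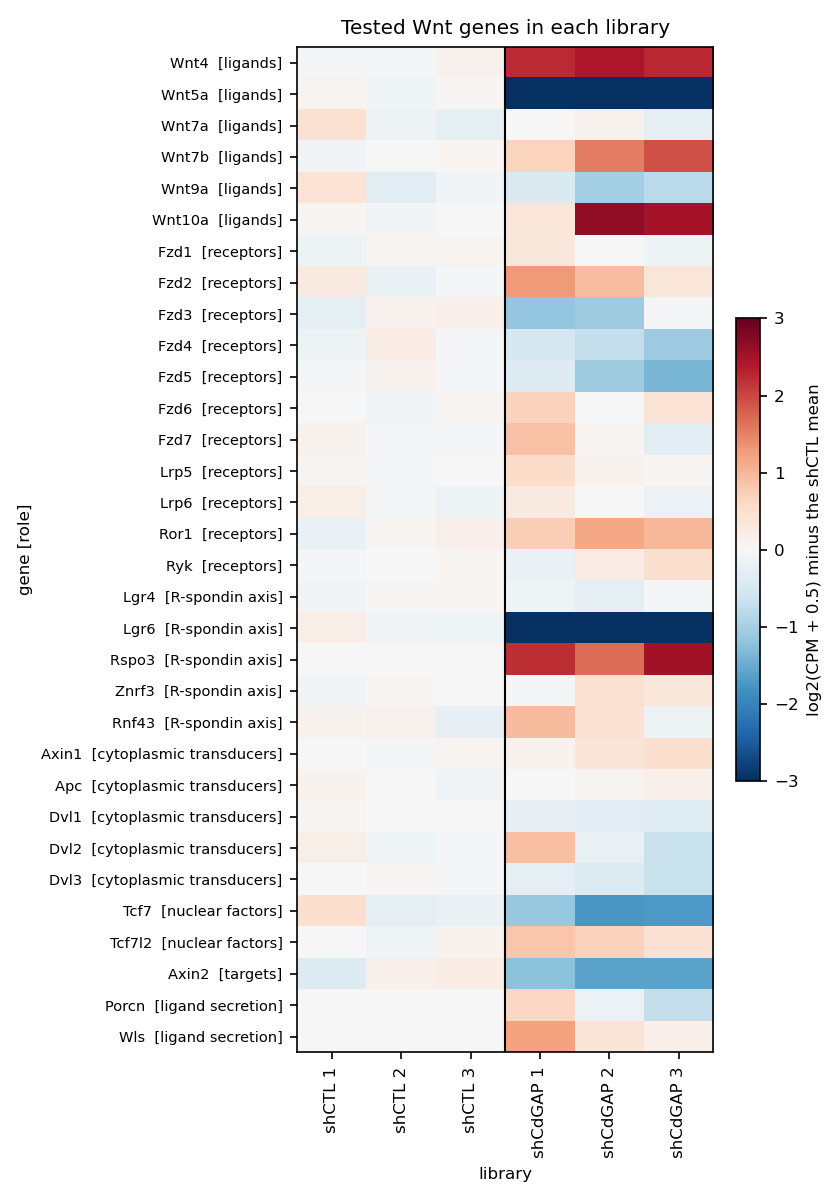
Level of the 32 tested Wnt genes in each library, as log2(CPM + 0.5) minus the mean of the 3 shCTL libraries, with genes in order of role (rows) and libraries in columns. Red is higher and blue lower, with colours ending at 3 in either direction. Wnt5a and Lgr6 are dark blue in all 3 shCdGAP libraries, and Wnt10a is pale in shCdGAP replicate 1 only.

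Other genes of the pathway were taken from 6 lists of 90 genes, of which 49 were tested, 11 rose and 6 fell (all genes: 10.4% and 11.4%). Among 16 genes of planar cell polarity, the branch that orients cells within a sheet, 10 were tested, 3 rose and 1 fell. Celsr1, an atypical cadherin at the core of that branch, rose from 32.8 ± 3.5 to 105 ± 8.74 CPM (1.67 ± 0.126 on the log2 scale, SE, adjusted p = 0.000522). Its relative Celsr2 rose from 3.88 ± 0.809 to 14.3 ± 6.22 CPM (1.88, adjusted p = 0.0127), a call lost without shCTL replicate 2 or 3 (adjusted p up to 0.0639). Prickle1, a cytoplasmic partner, fell from 14.9, 11.1 and 10.4 CPM to 0.938, 0.544 and 0.555 CPM (log2 fold change −4.15 ± 0.302, adjusted p = 0.000446). Of the other ligands and R-spondins, a list of 10 genes with Fzd10, none had enough counts to be tested and 8 had 0 counts.

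Of 14 nuclear co-factors, which carry the beta-catenin signal to or from transcription, 12 were tested. Of these, edgeR called 4 risen and 0 fallen (all genes: 10.4% and 11.4%). At an unadjusted p under 0.05, 5 were higher and 0 lower (all genes: 17.4% and 17.3%), and DESeq2 also called 5 and 0 (all genes: 14.1% and 14.5%). Bcl9l, a co-activator that binds beta-catenin, rose from 71.7 ± 5.3 to 143 ± 18.3 CPM (SD, n = 3; log2 fold change 1.00, adjusted p = 0.00344 by edgeR). Tle3, a Groucho-type co-repressor, rose from 112 ± 7.9 to 168 ± 9.2 CPM (0.58, adjusted p = 0.00968), a call lost without shCTL replicate 2 (adjusted p = 0.0662).

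Of 19 genes of the destruction complex and beta-catenin, 15 were tested, and edgeR called 1 risen and 0 fallen (all genes: 10.4% and 11.4%). At an unadjusted p under 0.05, 2 were higher and 3 lower (all genes: 17.4% and 17.3%), and DESeq2 called 2 and 2 (all genes: 14.1% and 14.5%). The gene that rose was Dact2, a Dishevelled-binding antagonist, from 2.95 ± 0.321 to 18.4 ± 7.44 CPM (log2 fold change 2.64, adjusted p = 0.00251). Ctnnb1, which encodes beta-catenin and is named after its values were seen, was at 1438, 1373 and 1383 CPM in shCTL and at 2893, 1556 and 1626 CPM in shCdGAP (0.53, adjusted p = 0.187). The shCdGAP libraries lay above shCTL, with replicate 1 far above its replicates.

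Of 13 further secreted and membrane inhibitors, 3 were tested and all 3 fell (all genes: 11.4% by edgeR). At an unadjusted p under 0.05 or by DESeq2, 0 were higher (all genes: 17.4% and 14.1%). Apcdd1, a membrane inhibitor and known Wnt target, fell from 16.1 ± 1.39 to 3.81 ± 2.38 CPM (log2 fold change −2.07, adjusted p = 0.0221 by edgeR). Tpbg, which alters Lrp6 trafficking, fell from 25.5 ± 2.79 to 17.2 ± 0.86 CPM (−0.57, adjusted p = 0.0283), and Kremen1, a receptor for Dkk proteins, from 29.2 ± 2.12 to 17.0 ± 4.31 CPM (−0.78, adjusted p = 0.0366). None of the 3 calls held in every setting. Each was lost without any of the 3 shCTL libraries and without shCdGAP replicate 2 (adjusted p up to 0.134), Tpbg and Kremen1 also without shCdGAP replicate 3, and Tpbg with the replicate block.

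Of 18 other reported targets, 9 were tested, 3 rose and 2 fell (all genes: 10.4% and 11.4%). Ccn4, a matricellular protein first described as Wnt-induced, rose from 27.4 ± 3.47 to 142 ± 18.5 CPM (2.37 on the log2 scale, adjusted p = 0.000346). A rise was also called for Id2, an inhibitor of helix-loop-helix factors, with 290 ± 59.6 and 628 ± 45.2 CPM (1.12, adjusted p = 0.00618). Nrcam, a neural cell adhesion molecule, fell from 23.0 ± 1.57 to 1.70 ± 0.844 CPM (−3.75, adjusted p = 0.00131). Ccnd1, which encodes cyclin D1, fell from 1424 ± 34.5 to 884 ± 212 CPM (−0.69, adjusted p = 0.0441), a call lost with RLE scaling and without any shCTL library or shCdGAP replicate 2 (adjusted p up to 0.14). Called genes among the reported targets thus went in both directions, as did those among the members and among all tested genes.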

How the data were processed

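RNA from 6 libraries was measured by RNA-seq. The submitters' processing notes name TopHat2 2.0.14 and the build GRCm38, with Trimmomatic 0.30, CASAVA 1.8, DESeq and Cuffdiff 2.2.1, in no stated order. The deposited values are raw read-pair counts per gene, made by the authors with featureCounts 1.4.6 on Ensembl 77 with reverse strand, per the file headers, beside each gene's exon length.

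Gene symbols were matched by Ensembl gene identifier, and RefSeq synonyms were used only for list symbols not found that way. The members and gene lists were chosen with earlier results of these data known. Counts were scaled by TMM and tested with edgeR 4.0.16 (R 4.3.3, limma 3.58.1; quasi-likelihood F test, unpaired, filterByExpr with a minimum count of 10 and a total of 15), adjusted over 13483 genes and called under 0.05. A tested gene's SE is the log2 fold change over the square root of F. The script was tested on simulated data. Levels are CPM, or CPM per kilobase of exon between genes. Few-count ratios used scaled group totals with exact (Clopper-Pearson) 95% intervals, which cover counting error only. They were made only where 1 group had 3 or fewer counts and the other had more. For a group of 0 counts, a floor of 3 counts over the group was used, with the count of the other group taken as exact. All members are accounted for by role, with values per library for each call, and other lists by up to 2 risen and 2 fallen genes of smallest adjusted p. Exceptions are named. Replicate numbers correlated in their deviations (r = 0.36, 0.29 and 0.25 for replicates 1 to 3), taken as pairing from the data alone. They set replicate 1 apart from 2 and 3 but did not single out pairs 2 and 3, since shCTL 3 with shCdGAP 2 gave 0.25 and shCTL 2 with shCdGAP 3 gave 0.19. Alternatives were DESeq2 1.42.0, RLE scaling, no filter, a replicate block, and leaving out each library.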

Additional observations from a re-analysis of the deposited data

How the results depend on the processing

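Of the 11 called Wnt genes, 7 (Wnt4, Wnt5a, Ror1, Lgr6, Rspo3, Tcf7 and Axin2) were called in all 10 alternatives, and none of the 11 changed sign in any of them. DESeq2 called 8 members fallen, against 5 by edgeR, adding Dvl1, Dvl3 and Fzd5, and 7 risen, adding Fzd2, where it called 14.5% of all genes fallen and 14.1% risen. With the replicate block, 5 members rose and 5 fell, as did 12 and 6 of the other pathway genes and 1277 and 1468 of all genes. The block ended the calls of Fzd4, Tcf7l2, Wnt10a and Tpbg among the named genes and added Fzd2 and Wnt9a. Leaving out 1 library at a time gave 3 to 11 risen and 4 to 9 fallen members, 5 to 14 risen and 2 to 14 fallen other pathway genes, and 538 to 2753 risen and 856 to 3032 fallen genes in all. Each highest count came without shCdGAP replicate 1, the library that stood furthest apart. Risen members numbered 3 without any 1 shCTL library or without shCdGAP replicate 2. Other counts of members and pathway genes under another tool, scaling or filter moved by no more than 1.5 times. The 22 untested members had too few counts for the test, 8 of them with 0 counts, and the part of depth in this was not tested. Among the others, Fzd8, Wif1, Notum and Lef1 had 3 or fewer counts in 1 group and more in the other. The interval of the Fzd8 ratio lay above 1, and of these genes only Lef1 was called with no filter. Members with more than 3 counts in both groups, such as Lgr5 (9 and 27), were given no such ratio.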
